A study of Mus musculus with 24 samples.

Results

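The genes described here are 9 that resident microglia of the healthy mouse brain express: P2ry12, Tmem119, Cx3cr1, Csf1r, Gpr34, Selplg, Sall1, Olfml3 and Siglech. They were chosen by name, with earlier results of these data known. Every probe set annotated to only that gene was taken, which gave 13 probe sets out of 34945 with 1 gene symbol and 9 of 18193 genes. Csf1r had 3 probe sets, Cx3cr1 and Sall1 had 2 each and the other genes had 1. Unless another is named, a gene is given by its brightest probe set on average. Forebrain, cut free of the olfactory bulb and of the cerebellum with the brainstem, was profiled on Affymetrix arrays, 1 array per mouse. The 6 groups of 4 mice were TgCRND8 mice and control mice at each of 3 ages, 70, 80 and 150 days. TgCRND8 mice carry a transgene of the human amyloid precursor protein with the Swedish and Indiana mutations (APPSwe/Ind in the labels), and the controls were wild-type littermates without it. In this line, as general knowledge of it and not from the labels, a prion protein gene promoter drives the transgene, and amyloid plaques form in the cortex and hippocampus of young adults.

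Microglia are the macrophages of the brain parenchyma. They depend on signalling through the receptor Csf1r, and under the influence of TGF-beta and of transcription factors such as Sall1 they keep a set of genes that sets them apart from other macrophages, often called homeostatic. In mouse models with plaques, single-cell work has described microglia at plaques that carry less of several of these transcripts and more of genes such as Cst7 and Trem2. The samples here are whole forebrain, so fewer microglia and less RNA per microglial cell cannot be told apart, and neither can more cells and more RNA per cell.

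Values are log2 signals as deposited, and a difference of 1 is a doubling. Signals of different probe sets cannot be set against each other as expression, but they show how far each probe set stood from the dim end of the array. The array medians lay at 4.28 to 4.38 and the lower quartiles at 3.15 to 3.32. Averaged over 24 arrays, Csf1r read 9.55, Cx3cr1 7.32, P2ry12 7.21, Selplg 6.45, Tmem119 6.23, Gpr34 5.53, Siglech 5.10, Sall1 5.001 and Olfml3 3.88. Csf1r lay above 96.0% of all genes, whereas Olfml3 lay above 31.0% and below every array's median, where differences are compressed. All 9 lay above the lower quartiles on average. The neuron markers averaged 7.82 to 11.8, which shows neural tissue but cannot tell forebrain from other brain regions. Sall1 is also expressed by neural progenitors and Selplg by other leukocytes. The level of Xist, an RNA of the inactive X chromosome, was high in 19 arrays and low in 5: 2 of TgCRND8 and 2 of control mice of day 80 and 1 control mouse of day 70. No day 150 array was low.

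Promoter sequence was available for 5 of the 9 genes, in 7 start sites (3 of them of Sall1). Shown are the 250 bases before the start of P2ry12 and of Cx3cr1, receptor genes among the 9, whose values correlated at -0.41 within groups over the 24 arrays. Both are from RefSeq on build GRCm38.p6, on the minus strand, written 5′ to 3′ in the direction of transcription.
P2ry12, chr3:59262986-59263235: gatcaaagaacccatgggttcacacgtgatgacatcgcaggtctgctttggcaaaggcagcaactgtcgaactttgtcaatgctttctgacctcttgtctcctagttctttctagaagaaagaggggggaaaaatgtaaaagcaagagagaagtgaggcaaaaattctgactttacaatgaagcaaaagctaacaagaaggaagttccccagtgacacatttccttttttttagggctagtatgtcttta
Cx3cr1, chr9:120068297-120068546: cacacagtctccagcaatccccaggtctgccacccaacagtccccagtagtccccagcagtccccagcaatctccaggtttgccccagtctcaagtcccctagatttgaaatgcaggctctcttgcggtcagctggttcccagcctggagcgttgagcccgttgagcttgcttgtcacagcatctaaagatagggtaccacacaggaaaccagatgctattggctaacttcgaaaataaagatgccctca
The core GAGGAA of sites for PU.1, the lineage factor of macrophages, was searched on both strands and would be in capitals, but 0 of the 7 windows held it. Among 32851 promoters of the same length 23.3% held it. The paired element of interferon regulatory factors was in 0 of the 7 windows as well, and in 2.98% of all. This says only that these letters are not in these windows.

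At day 150 all 9 genes read higher in TgCRND8 than in control forebrain, by 0.10 to 0.52 log2 with a median of 0.18, but none passed the test over all genes. Gpr34 had the widest difference, Siglech, Csf1r and Selplg followed, and Cx3cr1, Tmem119 and P2ry12 had the smallest. Of all genes 50.1% read higher at this age, and the median gene differed by 0.0004. By limma with Benjamini-Hochberg adjustment the adjusted p of all 9 was 0.999, in a comparison in which 22 of 18193 genes (0.121%) rose at adjusted p under 0.05 and 0 fell. At unadjusted p under 0.05, 4 of the 9 were higher, against 1.97% of all genes that were higher by that rule, and 796 genes passed it in either direction (4.38%). None of the 9 was lower at this age. Because the 9 genes were chosen with earlier results of these data known, these counts are description and not a test of the set. The labels call the samples biological replicates, and 4 arrays per group limit the precision.

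Gpr34 codes for a Gi-coupled receptor for lysophosphatidylserine. Its log2 signals at day 150 were 5.43, 5.66, 6.29 and 5.89 in TgCRND8 mice, against 4.88, 5.33, 5.52 and 5.46 in control mice. The TgCRND8 mouse with 5.43 lay below 2 of the control mice, so the groups overlapped, and the mouse with 6.29 was the highest of the 24 arrays. The means were 5.82 ± 0.37 in TgCRND8 and 5.30 ± 0.29 in controls (SD, n = 4 each). The difference was 0.52 (standard error 0.206, 95% interval 0.10 to 0.94, unadjusted p = 0.018 and adjusted p = 0.999 by limma).

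The labels number the mice 1 to 4 in each group, without saying what a number stands for. At day 150, same-numbered TgCRND8 and control mice deviated together (correlations 0.137 to 0.256 across genes), while at days 70 and 80 they did so for some numbers only (-0.321 to 0.479). With day 150 arrays paired by number, Gpr34 was higher in TgCRND8 in all 4 pairs, by 0.55, 0.32, 0.77 and 0.44. That fit, chosen after seeing the data, gave Gpr34 a standard error of 0.082 and an adjusted p of 0.0305 by limma, past the threshold, among 31 genes that rose (0.17%) and 1 that fell (0.0055%). The call was lost in 3 of the 4 fits without 1 pair. Without pair 1, 3 or 4 the adjusted p was 0.218, 0.184 or 0.142 by limma, and without pair 2 it was 0.0411. The difference itself was 0.51, 0.58, 0.44 and 0.55 without pair 1, 2, 3 and 4, against 0.52 with all pairs. With replicate number as a block in all 24 arrays it was 0.447 by limma. In the paired day 150 fit the adjusted p was 0.209 for Siglech, 0.409 for Csf1r and 0.486 for Selplg by limma. These 3 genes and Gpr34 were higher in all 4 pairs, as were 8.3% of all genes, and the other 5 were higher in 3 of 4.

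**Figure D1:**
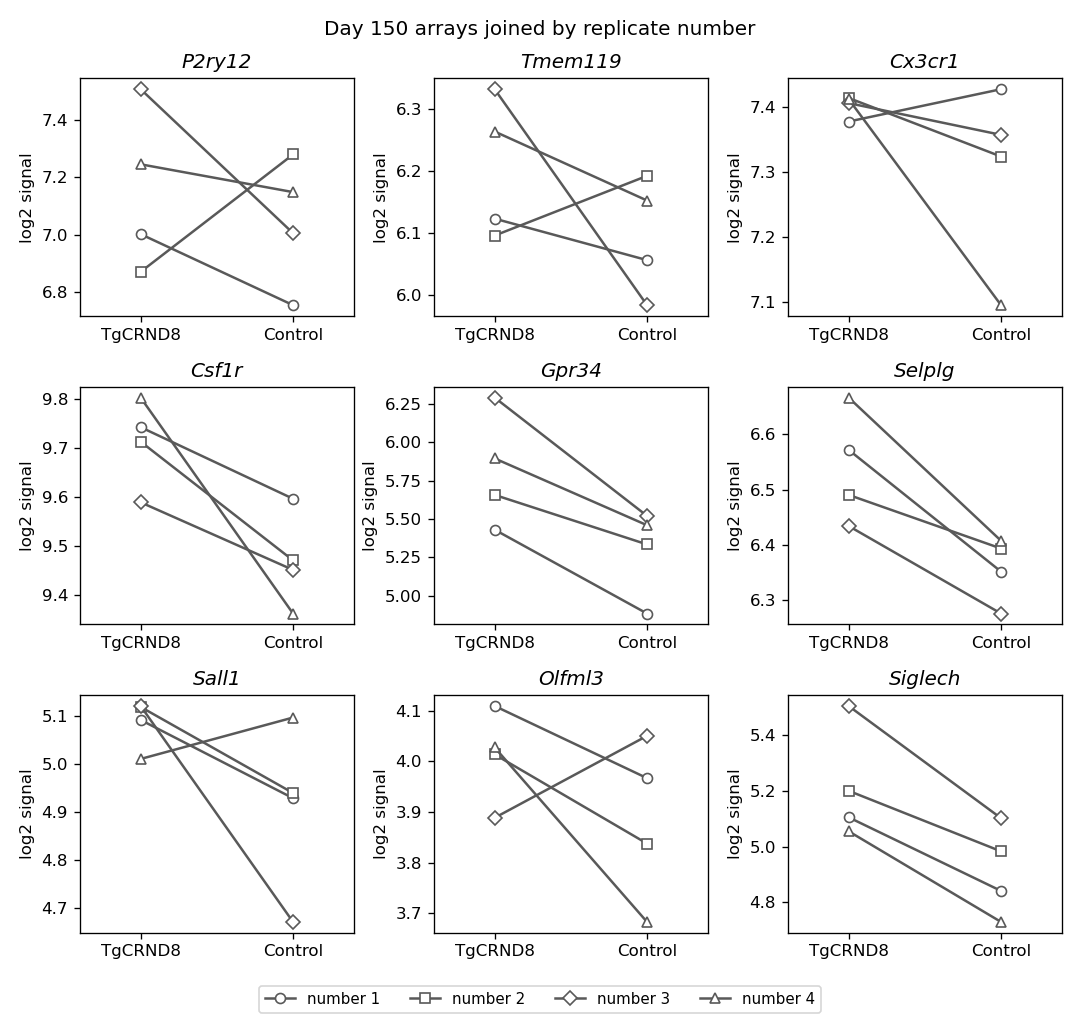
Log2 signal of each of the 9 genes at day 150, in TgCRND8 (left) and control (right) mice, with lines joining mice of the same number in the labels. All 4 lines fall towards the control for Gpr34, Siglech, Csf1r and Selplg, while 1 line rises for each of the other 5.

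Siglech codes for a sialic acid-binding lectin that signals through the adaptor of Tyrobp. At day 150 it read 5.11, 5.20, 5.51 and 5.06 in TgCRND8, against 4.84, 4.98, 5.10 and 4.73 in controls. The groups overlapped by 1 control mouse only, the one with 5.10, and the difference was 0.30 (95% interval 0.02 to 0.58, adjusted p = 0.999 by limma). Selplg, the gene of the selectin ligand PSGL-1 that leukocytes use to roll on vessel walls, read 6.57, 6.49, 6.43 and 6.67 in TgCRND8, against 6.35, 6.39, 6.28 and 6.41 in controls. It was the only member whose 4 TgCRND8 arrays all lay above the 4 control arrays at this age, as did 1.53% of all genes. Its difference was 0.18 (95% interval 0.04 to 0.33, adjusted p = 0.999 by limma), small beside that of Gpr34 but with a spread of 0.10 and 0.06 (SD) in TgCRND8 and control mice.

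Csf1r, the tyrosine kinase receptor on which microglial survival depends, read 9.74, 9.71, 9.59 and 9.80 in TgCRND8 at day 150, against 9.60, 9.47, 9.45 and 9.36 in controls. A TgCRND8 mouse at 9.59 fell just below the highest control. The difference was 0.24 (95% interval 0.03 to 0.46), and the other Csf1r probe sets, which share the transcript, gave 0.25 (exact permutation p = 0.0286, the smallest that 4 against 4 allows) and 0.15 (exact permutation p = 0.114). The 3 probe sets thus pointed the same way.

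For the ADP receptor gene P2ry12, which guides microglial processes to damage, day 150 values were 7.001, 6.87, 7.51 and 7.25 in TgCRND8, against 6.75, 7.28, 7.005 and 7.15 in controls. The 2 groups interleaved, with means of 7.16 ± 0.28 in TgCRND8 and 7.05 ± 0.23 in controls, and the 95% interval of the difference, -0.18 to 0.40, holds changes in both directions. With 1 array left out the difference was -0.00773 (without the TgCRND8 mouse at 7.51) to 0.21 (without the TgCRND8 mouse at 6.87), 0.0118 without the control mouse at 6.75 and 0.19 without the control mouse at 7.28. Tmem119, a surface protein gene used to tell microglia from other macrophages, read 6.12, 6.10, 6.33 and 6.26 in TgCRND8 and 6.06, 6.19, 5.98 and 6.15 in controls, and its difference of 0.11 had an interval of -0.06 to 0.27. It was 0.0647 without the TgCRND8 mouse at 6.33 and 0.0699 without the control mouse at 5.98. Losses of whole forebrain signal larger than 0.18 log2 for P2ry12 and 0.06 for Tmem119 lie outside these intervals, which are not adjusted for the number of genes. The intervals do not bound a change of RNA per microglial cell.

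The fractalkine receptor gene Cx3cr1 gave different sizes on its 2 probe sets. The brighter one read 7.38 to 7.41 in the 4 TgCRND8 mice of day 150, against 7.43, 7.32, 7.36 and 7.09 in controls, a difference of 0.10 (95% interval -0.07 to 0.27), which was 0.0331 without the control mouse at 7.09. The dimmer one read 5.60, 5.59, 5.64 and 5.85 in TgCRND8, against 5.23, 5.05, 5.60 and 5.19 in controls. Its difference was 0.40, with unadjusted p = 0.0027 and adjusted p = 0.782 over all probe sets by limma, and an exact permutation p of 0.0571. Only the control mouse with 5.60 reached the TgCRND8 values, and the difference between the 2 probe sets was not tested.

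Sall1, the zinc-finger factor that keeps microglial identity, read 5.09, 5.12, 5.12 and 5.01 in TgCRND8 at day 150, against 4.93, 4.94, 4.67 and 5.10 in controls. The difference of 0.18 had an interval of -0.08 to 0.43, and was 0.0968 without the control mouse at 4.67 and 0.0414 with the mean of both probe sets. The second Sall1 probe set, at a mean level of 4.57, gave -0.09 (exact permutation p = 0.171), the opposite sign. Olfml3, a secreted olfactomedin-domain glycoprotein gene, read 4.11, 4.01, 3.89 and 4.03 in TgCRND8 and 3.97, 3.84, 4.05 and 3.68 in controls, a difference of 0.13 (-0.13 to 0.38), which was 0.0581 without the control mouse at 3.68. Neither gene separated the genotypes.

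**Figure D2:**
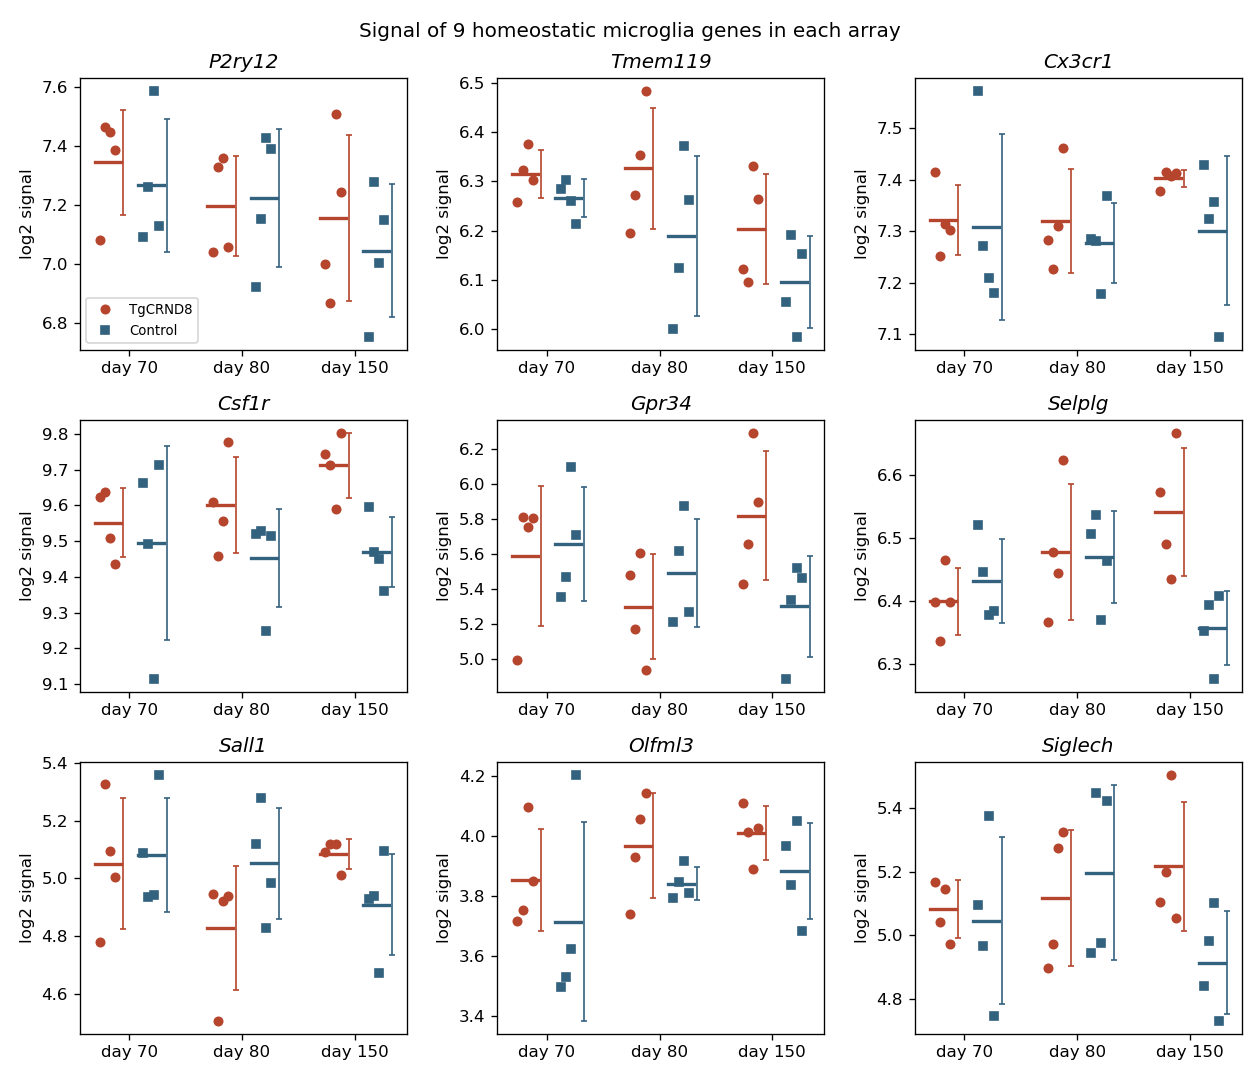
Log2 signal of the main probe set of each of the 9 genes in all 24 arrays, by age in days, TgCRND8 left of control at each age. Points are mice, horizontal lines group means and bars SD (n = 4), and y axes differ between panels; in all 9 panels the TgCRND8 mean lies above the control mean at day 150.

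At days 70 and 80 the differences between genotypes were small and of mixed sign. At day 70, 6 of the 9 read higher in TgCRND8 (48.7% of all genes did), with a median difference of 0.04 and a range of -0.07 for Gpr34 to 0.14 for Olfml3. At day 80, 5 of 9 read higher (50.9% of all genes), with a median of 0.01 and a range of -0.22 for Sall1 to 0.15 for Csf1r. At day 70 Gpr34 read 4.99, 5.81, 5.75 and 5.81 in TgCRND8, against 5.35, 5.47, 6.10 and 5.71 in controls, and without the TgCRND8 mouse at 4.99 its difference was 0.13 in place of -0.07. Gpr34 read 5.48, 5.17, 5.60 and 4.94 in TgCRND8 at day 80, against 5.21, 5.61, 5.87 and 5.27 in controls, a difference of -0.19 (95% interval -0.62 to 0.23). Sall1 read 4.94, 4.50, 4.92 and 4.94 in TgCRND8 at day 80, against 5.12, 5.28, 4.83 and 4.98 in controls. For both genes the genotypes overlapped, and without the TgCRND8 mouse at 4.50 the difference of Sall1 was -0.12. The second Sall1 probe set differed by -0.01 at day 80, against -0.22 for the main one. The Csf1r difference at day 80 was 0.08 without the control mouse at 9.25. By limma 0 members and 0 genes passed at either age. At unadjusted p under 0.05, 0 members passed at either age, with 591 of all genes (3.25%) at day 70 and 685 (3.77%) at day 80. Actin 3′ minus 5′ signal, a measure of RNA and labelling quality, was 0.663 to 0.805 in TgCRND8 and 0.777 to 0.877 in controls at day 80, and its part in these values was not tested.

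Averaged over the 3 ages, 8 of the 9 read higher in TgCRND8 (49% of all genes), with Csf1r at 0.15 (95% interval 0.03 to 0.27), Olfml3 and Tmem119 next at 0.13 and 0.10, and Sall1 at -0.03. None passed by limma, while 7 genes of all did (0.0385%). Csf1r and Tmem119 were higher at unadjusted p under 0.05, as were 1.71% of all genes, and 574 genes (3.16%) passed that rule in either direction. The dimmer Cx3cr1 probe set gave 0.23, against 0.05 for the brighter one. Its unadjusted p was 0.0032 and its adjusted p over all probe sets 0.9997 by limma. The other Csf1r probe sets gave 0.11 and 0.10 (unadjusted p = 0.0526 and 0.0802 by limma). The change of the genotype difference, day 150 against the mean of days 70 and 80, was 0.65 for Gpr34 (95% interval 0.13 to 1.17, adjusted p = 0.812 by limma). It was 0.32 for Siglech, 0.30 for Sall1, 0.20 for Selplg and 0.14 for Csf1r, and 8 of 9 were above 0 (50.5% of all genes). Gpr34 and Selplg were above 0 at unadjusted p under 0.05, as were 2.28% of all genes (5.75% in either direction), and 2 genes (0.011%) passed by limma, neither of them a member. The value of Sall1 is that of its main probe set. Its second probe set differed between genotypes by -0.08, -0.01 and -0.09 at days 70, 80 and 150.

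**Figure D3:**
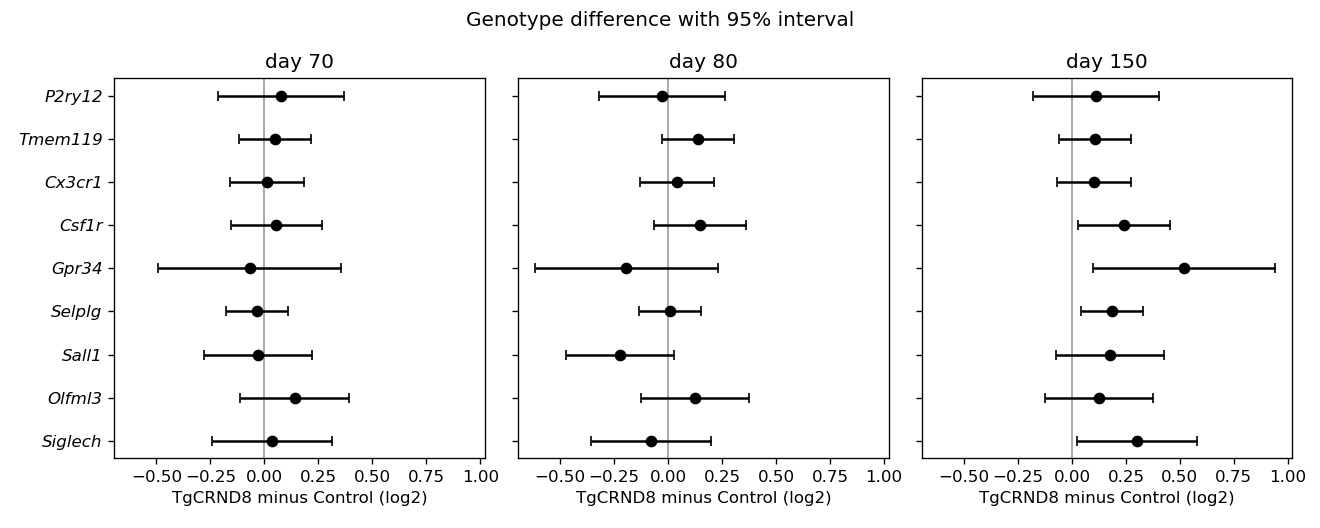
Difference of mean log2 signal, TgCRND8 minus control, for each of the 9 genes at days 70, 80 and 150 (in that order), with 95% intervals from limma (4 arrays per group). All intervals cross 0 at days 70 and 80, and Gpr34, Siglech, Csf1r and Selplg stand above 0 at day 150.

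With age most of the 9 genes read higher in TgCRND8 mice and lower in control mice, though none passed the test. These comparisons use the same arrays as the genotype differences. In TgCRND8 mice, 7 of 9 read higher at day 150 than at day 70 (48.8% of all genes), with a median of 0.13, led by Gpr34 at 0.23, Csf1r and Olfml3 at 0.16 and Selplg at 0.14, while P2ry12 read 0.19 lower and Tmem119 0.11 lower. In control mice, 8 of 9 read lower at day 150 than at day 70, with a median of -0.13, and Olfml3 alone read higher, by 0.17 (48.8% of all genes read higher). Gpr34 differed by -0.36, P2ry12 by -0.22 and Tmem119 by -0.17 (95% interval -0.34 to -0.00). None passed by limma in either genotype, where 16 genes (0.0879%) passed in TgCRND8 and 4 (0.022%, all lower) in controls. At unadjusted p under 0.05 no member passed in TgCRND8 (481 of all genes, 2.64%), and Tmem119 was the only one in controls, lower, as were 4.41% of all genes (7.99% in either direction). These counts use the main probe sets. The dimmer Cx3cr1 probe set differed by -0.26 in controls (unadjusted p = 0.0398 by limma) and by -0.07 in TgCRND8. The brighter one differed by -0.01 and 0.08. The second Sall1 probe set differed by 0.03 in controls, against -0.17 for the main one. Oligodendrocyte markers were also lower in controls at day 150 than at day 70, for 5 of 5 with a median of -0.25, and Mog, a myelin protein gene, passed at -0.70 (adjusted p = 0.0409 by limma), in a comparison in which 0 to 3 genes passed with 1 array left out. Their mean was 9.86 to 10.004 in controls of day 150 and 10.20 to 10.25 in controls of day 70, and 4 of 5 were lower in TgCRND8 mice, with a median of -0.11. Endothelial markers had a median of -0.17 in controls (3 of 4 lower) and -0.19 in TgCRND8 (4 of 4 lower). The other marker lists had medians of -0.02 to 0.09 in controls and -0.13 to 0.03 in TgCRND8. The part of these cell types in the members' values was not tested.

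Tmem119 was also the only member with non-overlapping control ages. It read 6.06, 6.19, 5.98 and 6.15 at day 150 in controls, against 6.29, 6.30, 6.26 and 6.21 at day 70, as did 2.53% of all genes that lay below. Against day 80, TgCRND8 mice of day 150 read higher for Gpr34 (0.52, 95% interval 0.10 to 0.94, adjusted p = 0.661 by limma) and for Sall1 (0.26, 0.01 to 0.51, adjusted p = 0.720 by limma). Sall1 was the only member whose day 150 TgCRND8 arrays all lay above those of day 80, as did 1.1% of all genes. Its second probe set did not show this, with TgCRND8 means of 4.56 at day 80 and 4.53 at day 150 and overlapping arrays. By the main probe sets, 7 of the 9 read higher in TgCRND8 at day 150 than at day 80 (47.9% of all genes). Gpr34 and Sall1 were higher at unadjusted p under 0.05, as were 2.45% of all genes (6.76% in either direction), and 4 genes (0.022%) passed by limma. In controls Siglech read 0.28 lower at day 150 than at day 80 (95% interval -0.56 to -0.01), the only member at unadjusted p under 0.05 there, lower, as were 1.81% of all genes (620 genes, 3.41%, in either direction). In that comparison 3 of the 9 read higher (49.6% of all genes). Xist was low in 2 of 4 day 80 arrays of each genotype and in 0 of 4 day 150 arrays of each. These comparisons thus differ in Xist as well as in age, and the 2 were not told apart. At day 70 Xist was low in 1 control array and 0 TgCRND8 arrays. Between days 80 and 70 no member passed in either genotype, with 5 of 9 higher in TgCRND8 (50.5% of all genes) and 3 of 9 higher in controls (48% of all genes). By limma 0 genes passed in either, and at unadjusted p under 0.05 1040 (5.72%) passed in TgCRND8 and 590 (3.24%) in controls, no member among them.

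The 6 group means of each gene were placed in order. For 7 of the 9 genes TgCRND8 mice of day 150 had the highest mean, for P2ry12 TgCRND8 of day 70 did and for Tmem119 TgCRND8 of day 80. Control mice of day 150 had the lowest mean for P2ry12, Tmem119, Selplg and Siglech. The shares of all genes with such orders were not computed. These orders rest on the same values as the day 150 differences above and add no support to them. On the second probe set the highest mean was that of TgCRND8 mice of day 70 for Cx3cr1 (5.74). For Sall1 it was that of control mice of day 150 (4.62). The span of the 6 means was 0.12 for Cx3cr1 and 0.52 for Gpr34, the extremes among the 9. It exceeded the pooled within-group SD for all 9 genes, with 0.12 against an SD of 0.111 for Cx3cr1 and 0.18 against 0.079 for Selplg. For Tmem119 it was 0.23 against 0.105 and for Gpr34 0.52 against 0.335. Means of 6 groups of 4 arrays tend to span more than the within-group SD without any group difference. The share of all genes was not computed, so no conclusion is drawn from these spans. Neighbours in the order were closer than that SD in all 45 cases, as sorting tends to make them. Averaged over the 9 genes, the deviation of an array from each gene's own mean was 0.033 to 0.202 in TgCRND8 mice of day 150 and -0.161 to -0.056 in control mice of day 150. In the other 4 groups it was -0.106 to 0.105. The day 150 genotypes did not overlap in this average, and both overlapped the younger groups. This average uses the same values as the day 150 differences above and adds no support to them. The share of other sets of 9 genes with such a separation was not computed, so no conclusion is drawn from it.

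Among mice of 1 group, the 9 genes did not vary as 1 unit. Over the 24 arrays, with each array taken as its deviation from its group mean, the 36 pairs of genes had a median correlation of 0.03, and 21 were above 0. P2ry12 and Gpr34 varied most alike (r = 0.74), then P2ry12 and Tmem119 (0.64) and Cx3cr1 and Csf1r (0.53). P2ry12 and Csf1r ran opposite (-0.65), as did Csf1r and Gpr34 (-0.61) and Cx3cr1 and Gpr34 (-0.55). The arrays share a common axis: the first component of all genes' within-group deviations held 25.3% of their variance. The sign of this axis is arbitrary and was set so that Gpr34 is positive. P2ry12 (r = 0.77) and Gpr34 (0.62) ran with it and Csf1r (-0.84) against it, while Cx3cr1 was at -0.34. Of all genes 6.13% were more strongly tied to that axis than Csf1r, 9.72% than P2ry12, 20.3% than Gpr34 and 46.7% than Cx3cr1. With the actin 3′ minus 5′ signal, Olfml3 had r = -0.57, Csf1r -0.52, Gpr34 0.35 and Selplg -0.34, and the other 5 genes were between -0.23 and 0.18. With the corresponding Gapdh signal the 9 genes were between -0.41 (Gpr34) and 0.36 (Cx3cr1). The part of these traits in the pattern was not tested. Group means on the axis ran from -1.84 to 1.96 while group SDs were 4.63 to 14.2.

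**Figure D4:**
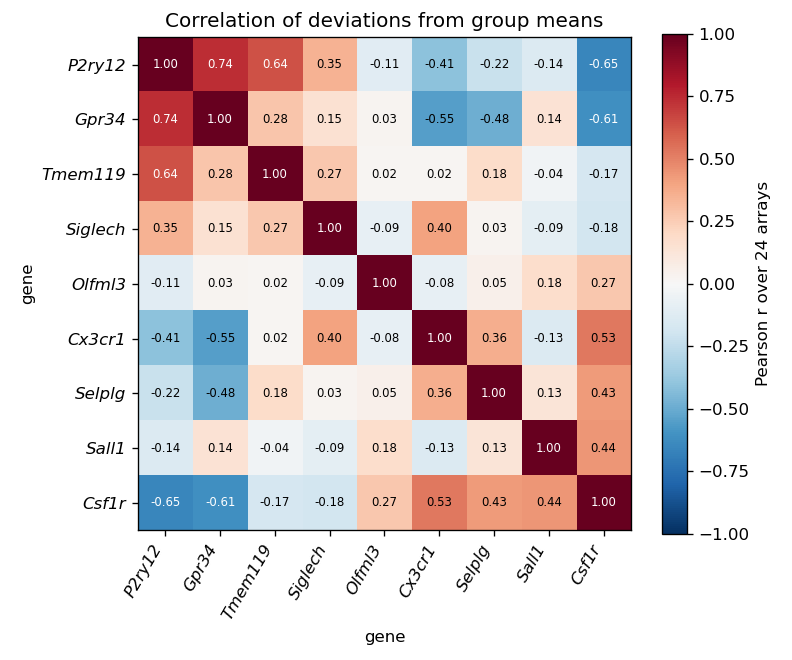
Pearson correlation between the 9 genes over 24 arrays, each value taken as its deviation from its own group's mean. P2ry12, Tmem119 and Gpr34 form a block of positive values and Csf1r has negative values with P2ry12 and Gpr34.

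The genes most like the members were looked for over the same arrays. S100a6 (r = 0.77 over 24 arrays), Tmem176a (0.74), C1qb (0.71), Spg21 (0.69) and Cyba (0.69) had the highest correlation with the mean over the 9 genes. These values include the differences between groups. With deviations from group means r was 0.66, 0.61, 0.50, 0.61 and 0.58 in that order. Within groups, Csf1r was closest to Gaa (0.91), Dctn1 (0.91) and Tmem63b (0.90), P2ry12 to Cbr4 (0.94), Polr2h (0.92) and Uba3 (0.89), and Gpr34 to Cnep1r1 (0.90), Arhgap5 (0.90) and Trim23 (0.89). Tmem119 was closest to Prpsap2 (0.74), Gcnt1 (0.74) and Calu (0.74), Selplg to Extl3 (0.81), Rhof (0.77) and Tfip11 (0.76), and Sall1 to Armt1 (0.82), Grid1 (0.82) and Zik1 (0.81). Cx3cr1 was closest to Ccdc130 (0.82), Tcstv3 (0.82) and Msx3 (0.80), and Siglech to Gm5785 (0.80), Agpat1 (0.80) and Eaf2 (0.78). Olfml3 was closest to Ifi30 (0.76), Ctsz (0.72) and Ctsd (0.72). These are the extremes of a search over all genes and describe likeness of values only.

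Of the members' ligands and partners 1 gene passed at day 150. Of 17 measured, 12 read higher in TgCRND8, with a median of 0.05, and the gene that passed was the adaptor gene Tyrobp at 1.31 (8.32 in TgCRND8 and 7.01 in controls, adjusted p = 0.00076 by limma). The Csf1r ligand genes Csf1 and Il34 differed by 0.02 each and the Cx3cr1 ligand gene Cx3cl1 by 0.09. The TGF-beta receptor genes Tgfbr1 and Tgfbr2, named after their values were seen, differed by 0.38 and 0.27 (unadjusted p = 0.025 and 0.041, adjusted p = 0.999 each by limma). The mean of the list, with Tyrobp in it, was 6.02 to 6.10 in TgCRND8 and 5.87 to 5.99 in controls. It was not computed without Tyrobp, and neither was the share of other gene sets of this size with such a separation. Among 11 transcription factors of microglia 0 passed, 8 were higher and the median was 0.07. Spi1, the gene of PU.1, differed by 0.13, Irf8 by 0.52 (adjusted p = 0.126 by limma) and Irf5 by -0.06. Among 21 other homeostatic microglia genes 0 passed and 9 were higher, with a median of -0.01: Fcrls differed by -0.00, P2ry13 by -0.05 and P2ry6 by -0.07.

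Macrophage and plaque-associated genes had larger medians at day 150 than the 9 genes. Among 14 shared macrophage genes 12 were higher, with a median of 0.22, and 2 passed, Ptprc at 0.71 and Cd68 at 0.999 (both adjusted p = 0.00258 by limma). Among 18 plaque-associated microglia genes 17 were higher, with a median of 0.35, and 7 passed, among them Cst7 at 1.59, Tyrobp at 1.31, Cd68 at 0.999 and Cd9 at 0.46 (adjusted p of 5.49e-10, 0.00076, 0.00258 and 0.00258 by limma). Both lists share Cd68, and Tyrobp and Csf1 are also in the list of partners. Aif1 and Itgam are in both the shared macrophage and the other homeostatic list, and P2ry13 is in the latter and among the partners. The difference between lists was not tested. None of the 9 genes passed.

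**Figure D5:**
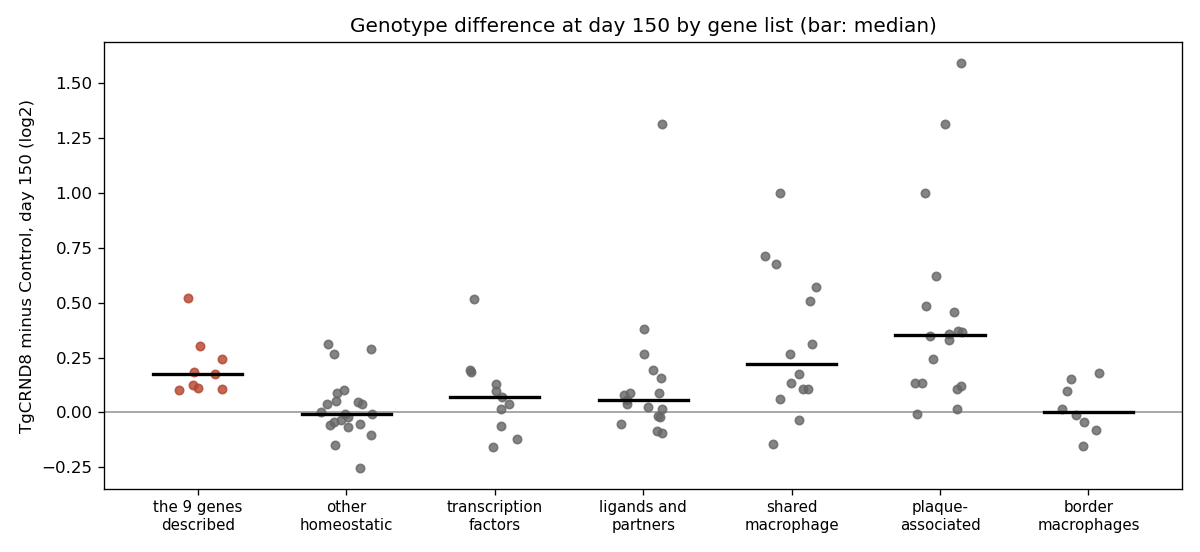
Difference at day 150, TgCRND8 minus control in log2 signal, for each measured gene of 7 lists (4 arrays per group), with horizontal bars at list medians. The 9 genes lie between 0.10 and 0.52, and the plaque-associated list reaches 1.59.

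Markers of other cell types showed no passing gene at day 150. Border macrophages, which line vessels and meninges and share Csf1r and Cx3cr1, gave 4 of 8 markers higher and a median of 0.00. Their 8 markers averaged 2.86 to 4.04 over the arrays, 2 of them under the lowest lower quartile, and their mean was 3.49 to 3.57 in TgCRND8 and 3.39 to 3.56 in controls. Monocyte and neutrophil markers had a median of -0.04 (3 of 6 higher), lymphocyte and plasmacytoid dendritic cell markers, a cell type that also expresses Siglech, -0.11 (2 of 6 higher), neuron markers 0.01 (3 of 6), astrocyte markers -0.01 (1 of 6), oligodendrocyte markers 0.02 (3 of 5) and endothelial markers -0.01 (2 of 4). Over the arrays, monocyte and neutrophil markers averaged 2.86 to 4.97, with 2 of 6 under the lowest lower quartile. Lymphocyte and plasmacytoid dendritic cell markers averaged 2.82 to 9.33 (Tcf4 the brightest), with 1 of 6 under it. Dim markers can miss a difference. Actin 3′ minus 5′ signal was 0.741 to 0.814 in TgCRND8 and 0.754 to 0.829 in controls of day 150.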

How the data were processed

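Values are the deposited log2 signals of the series matrix, made by the authors from Affymetrix arrays of biotin-labelled total RNA per the labels' protocols; the normalization method and the software version are not given in the sources used here. Of 45101 probe sets 64 are array controls, 932 list several genes, 9160 none and 34945 1 gene. Each of 18193 genes was represented by its probe set with the highest mean. Values range from 2.071 to 14.2. All 24 arrays were fitted in limma 3.58.1 (R 4.3.3) with group means and 11 contrasts, with Benjamini-Hochberg adjustment over all genes and a threshold of 0.05. Single probe sets also had an exact permutation test, two-sided, over 4 against 4 arrays. Scripts were tested on simulated data. Replicate numbers come from the labels. At day 150 every same-number correlation was over 0.1, so a paired fit was added. Other scalings, filters, probe set rules, covariates and left-out arrays were tried as alternatives. Named genes are the members, up to 4 passing genes of each list or its first 3 measured genes, and the 5 and 3 most similar genes. The members and lists were chosen with earlier results of these data known.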

Additional observations from a re-analysis of the deposited data

Results flagged for a closer look

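In 78 groups of 4 arrays (13 probe sets, 6 groups), 4 held an array far from the other 3 by Dixon's criterion, and chance gives about 1 in 20. Csf1r read 9.25 in control mouse 3 of day 80, and its second probe set read 7.31 in the same mouse. Gpr34 read 4.99 in TgCRND8 mouse 1 of day 70. Sall1 read 4.50 in TgCRND8 mouse 2 of day 80. None of these arrays is of day 150.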

How the results depend on the processing

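The alternatives were median centring, quantile normalization, a test without the 40% of genes of lowest signal (dim genes), probe set means, all probe sets, robust empirical Bayes, array weights, a replicate block, Xist or the first component as covariate, only the groups compared, a threshold of 0.10, and leaving out each array. Log2 values need no pseudocount. Over 36 genotype results of the members and 896 alternatives, the sign changed in 32. A member passed only in the paired day 150 fit, Gpr34, also without pair 2 there, where the count of members was 1 (0 to 1 without 1 pair). At day 150 the signs of the main probe sets held under all alternatives but leaving out TgCRND8 mouse 3, alone or with its pair, for P2ry12 (-0.00773 to 0.205 without 1 array, -0.0217 to 0.283 without 1 pair).
Without 1 array, day 150 differences were 0.0331 to 0.144 for Cx3cr1, 0.0581 to 0.181 for Olfml3, 0.0968 to 0.238 for Sall1, 0.0647 to 0.143 for Tmem119 and 0.362 to 0.649 for Gpr34. At day 70 the sign turned for Cx3cr1 (-0.00197 with median centring, -0.00479 with array weights), Gpr34 (0.0939 with array weights), Sall1 (0.0491 with array weights, 0.0127 with Xist) and Siglech (-0.00305 with Xist), and at day 80 for P2ry12 (0.00381 with quantile normalization, 0.0283 with array weights) and Selplg (-0.0151 with median centring, -0.0223 with array weights). Without 1 array, day 70 differences ran from -0.0296 to 0.101 for Cx3cr1, -0.0712 to 0.128 for Csf1r, -0.168 to 0.132 for Gpr34, -0.123 to 0.0616 for Sall1 and -0.0646 to 0.145 for Siglech. At day 80 they ran from -0.127 to 0.0415 for P2ry12, -0.0051 to 0.0735 for Cx3cr1, -0.0399 to 0.0458 for Selplg and -0.164 to 0.00417 for Siglech, and over the 3 ages from -0.0571 to 0.00943 for Sall1. Counts of all genes that passed moved by over 1.5 times as follows, and the cause was not tested. At day 150, 22 became 35 with array weights. Over the 3 ages, 7 became 4 with median centring, 11 at 0.10 and 12 with the component. The day 150 change, 2, became 1 without dim genes, 4 with all probe sets, 4 with the block and 6 with the component. In TgCRND8, day 150 against 70, 16 became 9 without dim genes or with probe set means and 27 with array weights; against day 80, 4 became 7 with median centring, 1 without dim genes, 2 with probe set means or array weights, 9 with the block, 14 at 0.10 and 1 with only the groups compared. In controls, day 150 against 70, 4 became 2 with quantile normalization, all probe sets or Xist, 7 with median centring, the block or 0.10, 8 with array weights and 0 with only the groups compared; against day 80, 0 became 1 with array weights or at 0.10. Without 1 array counts were 12 to 20 (6 to 21 in the paired fit without 1 pair, with 13, 6 and 14 without pairs 1, 3 and 4) at day 150, 0 to 2 at day 80, 4 to 10 over the ages, 8 to 14 and 1 to 7 for day 150 against 70 and 80 in TgCRND8, 0 to 2 for day 80 against 70 there, and 0 to 3 and 0 to 1 for day 150 against 70 and 80 in controls. The replicate block changed no other call of a member. Olfml3 is near the dim end, and 4 arrays per group limit all differences.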
